A study of Mus musculus with 8 samples.

Results

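The 350 genes described here are the long intergenic noncoding RNAs (lincRNAs) that were expressed in the mouse heart in every animal of a lung cancer cachexia experiment. They were selected on their measured level: a gene had to be annotated as lincRNA in the deposited table and to have at least 10 counts in each of the 8 mice, and H19, Meg3 and Yam1 were left out. The 350 were taken from 2998 lincRNA genes, and from 43346 genes of all kinds. Of the 2998, 1650 had 0 counts in every mouse.

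C57BL/6 male mice received LLC1 cells, the Lewis lung carcinoma line (LLC1 group, n = 4), or the PBS vehicle (PBS group, n = 4) at 7 weeks of age. The dose was 1000000 cells, and ventricular tissue was taken 14 days later for RNA. The labels give no genetic change and no drug for either group. The libraries are limited to 1 tumor line, 1 strain and male mice. Each library is called here by its group and the code in its label, so LLC1 1-2 and PBS 1-1 are single mice. In RNA from whole tissue, fewer cells of a type and less RNA per cell cannot be told apart.

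lincRNAs are transcripts that lie outside protein-coding genes and are spliced and often polyadenylated like mRNAs. Some build nuclear structures: Malat1 sits in nuclear speckles, where splicing factors are stored, and Neat1 is the scaffold without which paraspeckles, nuclear bodies that hold RNA and RNA-binding proteins, do not form. Others are known for what lies in their introns or exons, such as snoRNAs that guide rRNA modification or microRNAs that repress mRNAs, and Xist silences an X chromosome in female cells. Some genes once filed as lincRNAs encode micropeptides. One of these in the heart is DWORF, which activates the SERCA calcium pump.

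Members that carry microRNA hairpins on their own strand were located by coordinates, and 9 members held 16 such hairpins. The strand of a member was read from the GENCODE M21 annotation, so the 18 members not in it could not be counted. The mature sequences of the best known of them are shown because a reader can see from the seed which microRNAs of a host share a target family. Sequences are from RefSeq (GRCm38.p6), 5′ to 3′, and the capitals mark the seed, bases 2 to 8. The levels given below are those of the host transcripts, and no microRNA was measured in these libraries. A330023F24Rik, on chromosome 1, carries a pair that share a seed:
miR-29b-3p: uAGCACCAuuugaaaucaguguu
miR-29c-3p: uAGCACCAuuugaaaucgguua
Mir17hg, on chromosome 14, carries the 17-92 cluster, in which miR-17 shares its seed with miR-20a, and miR-19a with miR-19b:
miR-17-5p: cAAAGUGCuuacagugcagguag
miR-20a-5p: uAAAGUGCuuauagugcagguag
miR-18a-5p: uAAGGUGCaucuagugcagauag
miR-19a-3p: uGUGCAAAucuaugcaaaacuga
miR-19b-3p: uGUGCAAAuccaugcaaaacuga
miR-92a-3p: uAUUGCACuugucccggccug
The remaining hosts shown follow in the order E130102H24Rik, 6720427I07Rik, Gm27028 and Ftx:
miR-101a-3p: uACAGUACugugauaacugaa
let-7d-5p: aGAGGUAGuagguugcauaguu
miR-30c-5p: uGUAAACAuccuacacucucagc
miR-374b-5p: aUAUAAUAcaaccugcuaagug

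Library totals ran from 12480706 to 19747596 counts, so that 1 CPM (a count scaled to a library of 1000000) stood for 12.5 to 19.7 counts. PBS 1-1 was the smallest library and stood apart in its lincRNA counts. It had 6.35% of all counts on lincRNA genes, against 1.55% to 2.11% in the other PBS mice and 1.46% to 2.22% in the LLC1 mice. Most of this lay on Yam1, which the selection leaves out, and on Malat1. Without the 3 lincRNA genes with the most counts (Yam1, Malat1 and Neat1) PBS 1-1 was at 0.423%, the lowest of the PBS mice, and the other 7 mice lay between 0.411% and 0.440%. The labelled tissue showed its defining markers, with 10 cardiomyocyte markers summing to between 102221 and 120267 CPM in the 8 mice. The libraries were compared with each other on 16111 genes that passed a filter on low counts, and all 350 members passed it.

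**Figure D1:**
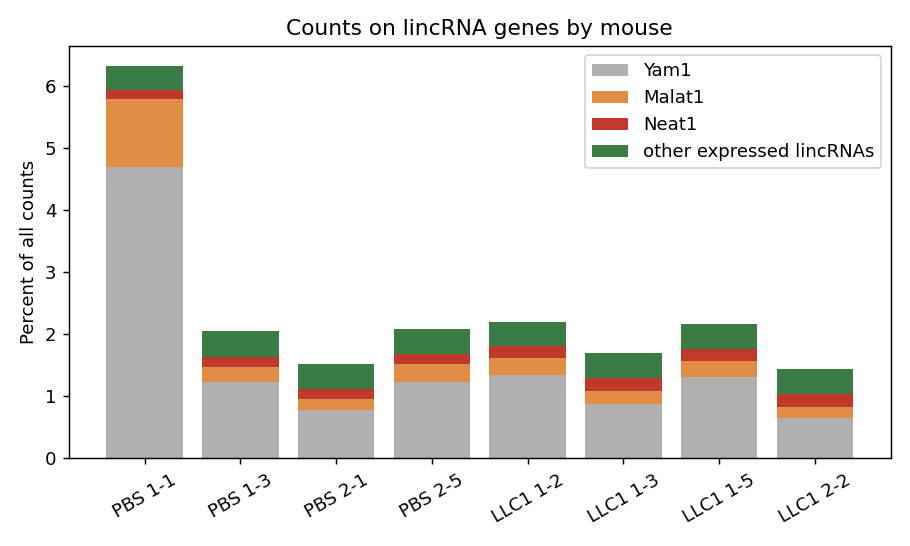
Stacked bars give the percent of all counts in each mouse that fell on Yam1, Malat1, Neat1 and the other expressed lincRNAs, with the 4 PBS mice at left and the 4 LLC1 mice at right. PBS 1-1 stands out through Yam1 (4.69%) and Malat1 (1.10%), while Neat1 lies between 0.136% and 0.222% in every mouse.

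Expressed lincRNAs were a small and concentrated part of the RNA. The median member had 4.06 CPM, 274 of the 350 lay under 10 CPM, 67 between 10 and 100 CPM and 9 at 100 CPM or more. Malat1 and Neat1 alone held 55.4% of all counts on members. Per length of transcript (TPM, mean of the 8 mice), Malat1 was highest at 1039, followed by Gm26631 at 272.7, Gm16755 at 215.4, Neat1 at 202.2, 1810014B01Rik at 161.8, RP23-456B9.23 at 156.0, Gm26899 at 152.1, Gm26825 at 136.9, 1700020I14Rik at 120.1 and Ino80dos at 93.8. Of these 10, only Neat1 passed the test between LLC1 and PBS mice. Gm26631, Gm16755, 1810014B01Rik and Ino80dos overlap Cox5a, Mrpl12, Hsp90b1 and Ndufs1 on the other strand, over 10.7% to 21.4% of their exonic length. Gm26899 and Gm26825 overlap Zfp106 and Gm15459 over 81.7% and 91.8%. The library kit used does not mark strand, so the levels of these members can include reads of the other gene. RP23-456B9.23 carries the name Lsmem2 in GENCODE M21, a protein-coding gene in RefSeq.

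The comparison of LLC1 with PBS hearts asks which transcripts change in the heart when a tumor grows elsewhere. Neat1 rose in the hearts of tumor-bearing mice, the micropeptide gene RP24-79E2.2 (DWORF) rose too, and Gm28979 fell. The counts of Gm26778 and Gm26735 were lower as well, but nearly all of their exonic length lies on a coding gene, whose reads cannot be told apart from theirs. In all, 10 members were called higher and 3 lower, together 13 of 350 or 3.71%, at a false discovery rate under 0.05 (edgeR's quasi-likelihood test), with the adjustment made over all 16111 genes. The same call was made for 8.73% of all genes tested (4.12% higher and 4.61% lower), and for 8.94% of the genes that had at least 10 counts in every mouse. A lincRNA with under 10 counts in any mouse of either group is no member, so these counts leave out falls to and rises from such low counts. At an unadjusted p under 0.05, 52 members passed (14.9%), beside 25.5% of all genes tested. Scaling by library totals alone, in place of TMM factors, gave 3 higher and 7 lower calls. Leaving out 1 mouse gave 1 to 15 higher and 3 to 8 lower calls, while calls over all genes went from 1406 to between 542 and 1950.

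Higher and lower values were nearly balanced, with 158 members above 0 and 192 below. The median log2 fold change of the members was -0.03, beside -0.01 over all genes tested, and the median size was 0.17, beside 0.15. Their standard errors were larger, with a median of 0.18 on the log2 scale against 0.11, at a median level of 4.06 CPM against 14.7 CPM. No member changed by more than 1 on the log2 scale. The 4 LLC1 values lay all above the 4 PBS values for 19 members and all below for 14, so that 9.43% of members had groups that did not overlap, beside 17.2% of all genes tested.

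**Figure D2:**
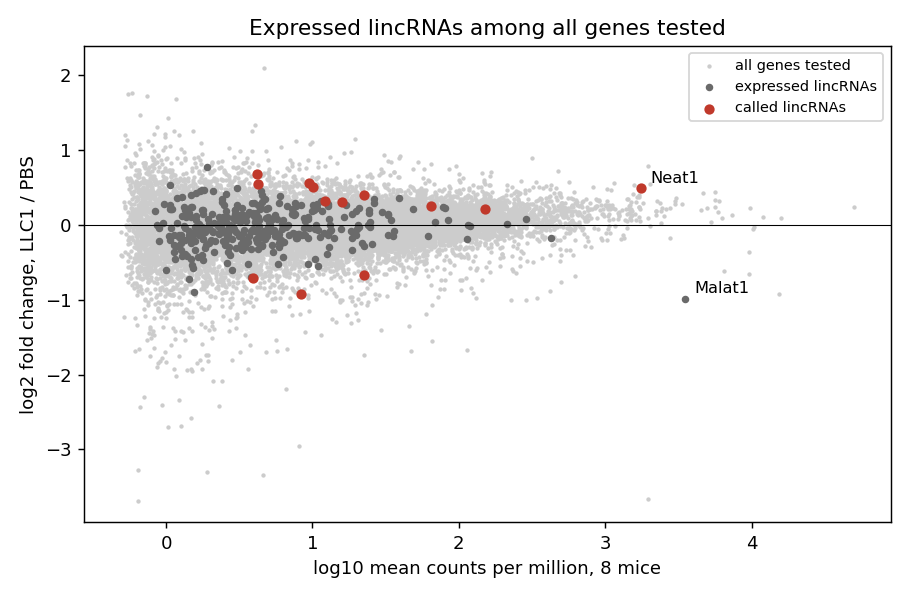
Each point is a gene, by its log10 mean CPM over the 8 mice (x axis) and its log2 fold change of LLC1 over PBS (y axis), with all 16111 tested genes in grey, members in dark grey and called members in red. Members lie mostly at low levels and within 0.5 of 0, and Malat1 and Neat1 are the highest of them.

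Nuclear body RNAs come first, since they hold most of the counts. Neat1 (ENSMUSG00000092274, mm10 chr19:5824708-5845478, 1 exon block in GENCODE M21) was at 2024, 2074, 1949 and 2204 CPM in LLC1 mice 1-2, 1-3, 1-5 and 2-2. In the PBS mice 1-1, 1-3, 2-1 and 2-5 it was at 1452, 1425, 1469 and 1515 CPM. Every tumor-bearing heart was above every vehicle heart, and the spread within each group was small. The mean was 2063 ± 107 (SD, n = 4) against 1465 ± 38.0, 1.41-fold higher (log2 0.49 ± 0.06 SE, adjusted p = 0.00133 in edgeR's quasi-likelihood test). Short and long Neat1 isoforms share their 5′ end and were counted together, so they cannot be told apart here.

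Malat1 (ENSMUSG00000092341, chr19:5795690-5802672) lies 22035 bases from Neat1 on the same strand. Its LLC1 values were 2768, 2247, 2767 and 1718 CPM, and its PBS values were 11776, 2415, 1765 and 2854 CPM. The groups overlapped, and PBS 1-1 held 5.02 times the mean of the other 3 PBS mice, a ratio that was 0.988 for Neat1. With all mice the log2 fold change was -0.99 ± 0.48 (SE, adjusted p = 0.224 in edgeR's quasi-likelihood test). Without PBS 1-1 it was 0.02. This is a description with no test, since that mouse was known for its lincRNA share, in part Malat1, when the members were chosen. Neat1 without that mouse was at 0.49, with an adjusted p of 5.78e-04 in edgeR's quasi-likelihood test.

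**Figure D3:**
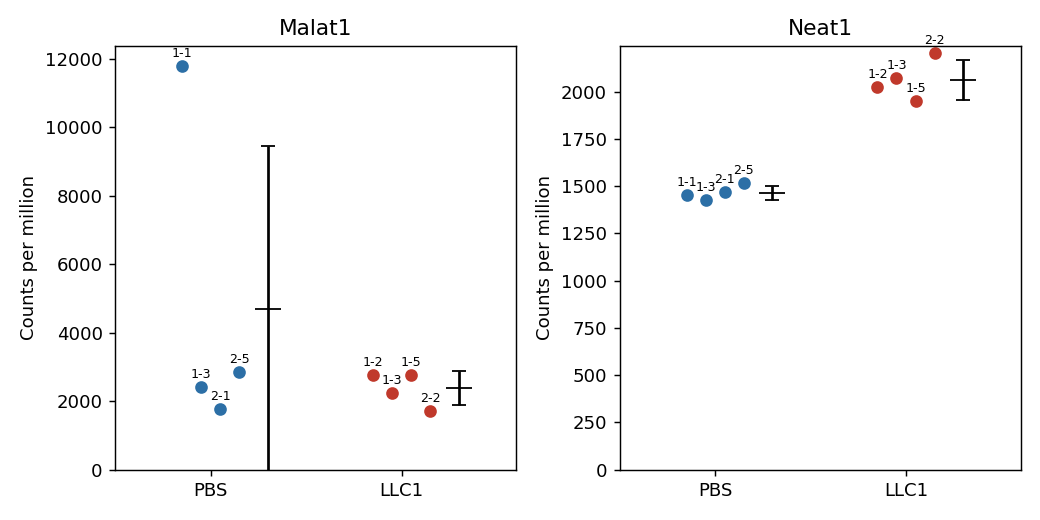
CPM of Malat1 (left) and Neat1 (right) in each mouse, with the mouse code above each point and the mean ± SD of the 4 mice as the black bar, cut at 0 where the SD exceeds the mean. PBS 1-1 at 11776 CPM sets the Malat1 mean of the PBS group, while for Neat1 all 4 LLC1 mice (1949 to 2204) lie above all 4 PBS mice (1425 to 1515).

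Yam1 was left out of the members, but it was, like Malat1, highest in PBS 1-1. It was at 13986, 8775, 13507 and 6417 CPM in the LLC1 mice and at 50162, 11759, 7360 and 11691 CPM in the PBS mice. As a description with no test, since PBS 1-1 was known for its lincRNA share when the members were chosen, Pearson r with Malat1 was 0.996 and Spearman rho 0.857 over the 8 mice. Without PBS 1-1 they were 0.935 and 0.786. PBS 1-1 and LLC1 2-2 were the mice farthest from the median of Yam1, and without them r was 0.899 over 6 mice. In GENCODE M21 this gene is Gm42418 on chromosome 17, and its whole span is overlapped on the other strand by an rRNA gene. Between Malat1 and Neat1, r was -0.394 and rho -0.429 over the 8 mice, and r was 0.307 without the same 2 mice.

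Protein partners of these RNAs are read here by the mRNA of their genes, with no protein measured, against the 8.73% of all genes called. Of 31 paraspeckle proteins, 1 was called higher and 1 lower: Cirbp, a cold-inducible RNA-binding protein, at 56.3 CPM in LLC1 and 39.5 CPM in PBS mice (log2 0.51), and Tia1, a stress granule protein, at 34.7 and 42.3 CPM (log2 -0.29). Of 25 measured genes for nuclear speckle proteins, 21 for RNA export, decay and m6A and 5 for NORAD binding proteins, none passed the test. The median log2 fold change was -0.04 for the paraspeckle list and 0.04 for the speckle list.

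RP24-79E2.2 (ENSMUSG00000103476, chr3:63481112-63483879, minus strand) is filed as lincRNA in the deposited table. GENCODE M21 gives it as protein-coding under the name Gm34302, and RefSeq names it Strit1, with DWORF as a synonym. It was at 13.4, 11.2, 10.7 and 9.65 CPM in the LLC1 mice and at 7.28, 8.54, 7.82 and 6.84 CPM in the PBS mice. Every tumor-bearing heart was above every vehicle heart. The mean was 11.2 ± 1.59 (SD, n = 4) against 7.62 ± 0.733, 1.47-fold higher (log2 0.55 ± 0.12, adjusted p = 0.0182 in edgeR's quasi-likelihood test), and 85 to 203 counts stood behind each value. The pump it activates, Atp2a2, and the inhibitor of that pump, Pln, were at log2 0.09 (adjusted p = 0.450) and 0.03 (adjusted p = 0.808) in the same test. These 2 genes were chosen after their values were seen.

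Other members that RefSeq or GENCODE M21 lists as protein-coding did not pass the test. RefSeq gives 17 of the 193 members that matched it by name or synonym and position as protein-coding. The 17 include DWORF. Gm4790 and 6230415J03Rik matched the same gene, Gm33989. By synonym, 2700016F22Rik and 4732487G21Rik matched the coding genes Emc1 and Gpatch2l, whose exons overlap theirs on the other strand. The 17 are thus matches, and not a count of separate coding genes among the members. 5430416O09Rik encodes the micropeptide Spaar and was at log2 0.19, 1810058I24Rik encodes the mitochondrial micropeptide Stmp1 and was at 0.24, and RP23-456B9.23 (Lsmem2) was at 0.16. 6030408B16Rik, named Smim41 in RefSeq, was at 0.42. Stmp1 came nearest to the threshold, with an adjusted p of 0.0681 in edgeR's quasi-likelihood test.

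Gm28979 (ENSMUSG00000101941, chr9:101342194-101348017) was the lower-called member with no exon overlap. Its LLC1 values were 2.77, 2.70, 3.28 and 3.22 CPM, and its PBS values were 4.71, 5.18, 4.88 and 4.89 CPM, from 41 to 83 counts. The 2 groups did not overlap, and all 4 tumor-bearing hearts were lower. It fell to 2.99 ± 0.298 from 4.92 ± 0.195 CPM (SD, n = 4), 1.64-fold lower (log2 -0.71 ± 0.13, adjusted p = 0.00892 in edgeR's quasi-likelihood test). Its nearest coding gene, Ppp2r3a, a regulatory subunit of protein phosphatase 2A, is 90399 bases away and did not pass the test (log2 -0.11).

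A further 3 called members stood without exon overlap, all higher in LLC1. D830032E09Rik (ENSMUSG00000100457, chr1:107917259-108028337) was at 10.90, 11.4, 13.7 and 11.2 CPM in the LLC1 mice and at 10.88, 7.77, 7.05 and 7.84 CPM in the PBS mice. Its groups nearly met, since PBS 1-1 lay just under the lowest LLC1 mouse. Gm11734 (ENSMUSG00000085419, chr11:117523603-117532205) was at 5.48, 5.33, 4.59 and 4.82 CPM in the LLC1 mice and at 2.91, 3.36, 3.12 and 4.36 CPM in the PBS mice, with every LLC1 mouse higher. 9530026P05Rik (ENSMUSG00000097462, chr6:92940369-93272889) was at 5.35, 5.85, 3.82 and 5.38 CPM against 4.46, 2.66, 2.82 and 2.95 CPM, and here LLC1 1-5 lay below PBS 1-1. Their log2 fold changes were 0.51 ± 0.14, 0.54 ± 0.15 and 0.68 ± 0.19 (SE), with adjusted p-values of 0.0426, 0.0482 and 0.0484 in edgeR's quasi-likelihood test. These 3 calls were mostly lost when 1 mouse was left out. D830032E09Rik was called in 1 of 8 such fits (without PBS 1-1), Gm11734 in 1 (without PBS 2-5) and 9530026P05Rik in 2 (without LLC1 1-5 or PBS 1-1), and the highest adjusted p in these fits of edgeR's quasi-likelihood test was 0.122, 0.124 and 0.138. 9530026P05Rik runs through the span of Adamts9, an extracellular protease gene on the other strand with no shared exon. Adamts9 went the other way, from 48.0 ± 12.2 to 28.1 ± 4.26 CPM (SD, n = 4; log2 -0.77, adjusted p = 0.0143 in the same test). Serpinb8, the coding gene nearest to D830032E09Rik, at a distance of 306775 bases, was lower (log2 -0.80, adjusted p = 0.0103 in edgeR's quasi-likelihood test).

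**Figure D4:**
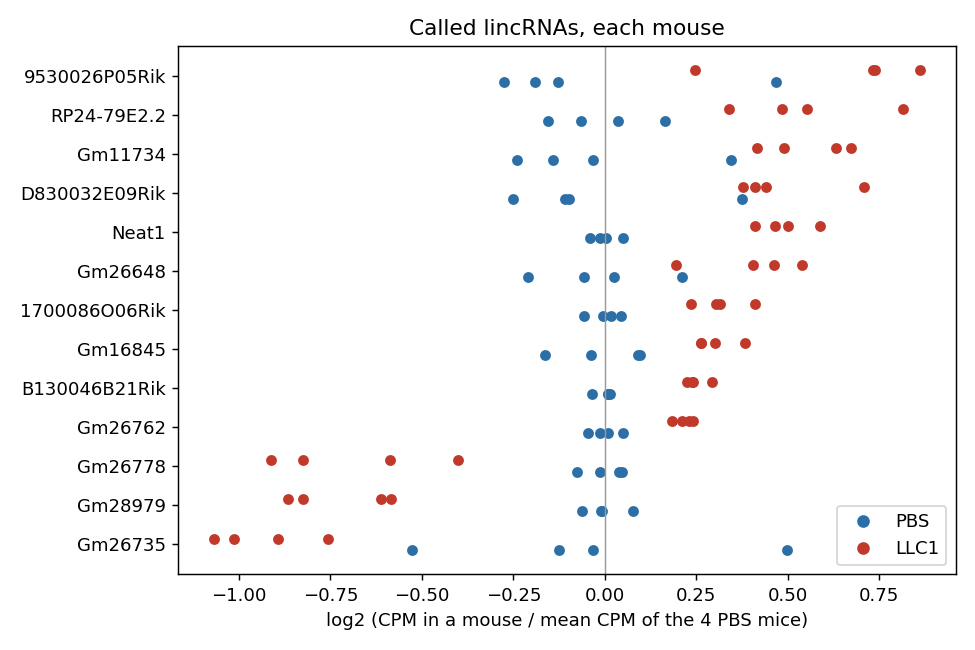
Each row is one of the 13 called members and each point one mouse, placed at the log2 ratio of its CPM to the mean of the 4 PBS mice, in blue for PBS and red for LLC1. Groups do not overlap in 11 rows; they overlap in 9530026P05Rik and Gm26648.

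The promoters of the called members without exon overlap are shown where RefSeq holds them, to set the higher and lower members side by side. They are from GRCm38.p6, from 250 bases before to 50 after the start site on the transcribed strand, except that Strit1 is shown only up to its start. The windows are chr3:63483907-63484156 (minus), chr9:101341944-101342243, chr11:117522930-117523229 and chr6:92940332-92940631. RefSeq start sites can differ from the bounds of the counted genes. The window of Gm11734 ends before its counted gene begins, and the start site of 9530026P05Rik lies inside its counted gene. The capitals mark matches on either strand to the TATA box TATAAA, the CCAAT box CCAAT, the GC box GGGCGG, the E box CACGTG, the AP-1 motif TGANTCA or the FOXO motif TGTTTAC.
Strit1: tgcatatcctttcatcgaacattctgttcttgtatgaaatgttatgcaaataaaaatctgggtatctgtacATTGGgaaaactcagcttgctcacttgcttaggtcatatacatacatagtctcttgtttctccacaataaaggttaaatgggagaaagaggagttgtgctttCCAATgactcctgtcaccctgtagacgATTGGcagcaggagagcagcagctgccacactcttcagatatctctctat
Gm28979: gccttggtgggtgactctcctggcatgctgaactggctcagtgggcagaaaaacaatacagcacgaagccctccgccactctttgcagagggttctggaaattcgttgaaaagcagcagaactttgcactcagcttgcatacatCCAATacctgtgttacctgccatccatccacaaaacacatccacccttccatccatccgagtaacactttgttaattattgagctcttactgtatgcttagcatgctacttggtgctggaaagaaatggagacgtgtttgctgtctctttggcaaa
Gm11734: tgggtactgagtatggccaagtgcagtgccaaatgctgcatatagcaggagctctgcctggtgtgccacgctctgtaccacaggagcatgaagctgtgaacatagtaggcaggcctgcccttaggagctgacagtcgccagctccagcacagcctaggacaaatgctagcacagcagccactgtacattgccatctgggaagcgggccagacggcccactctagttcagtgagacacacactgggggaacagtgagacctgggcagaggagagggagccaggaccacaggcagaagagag
9530026P05Rik: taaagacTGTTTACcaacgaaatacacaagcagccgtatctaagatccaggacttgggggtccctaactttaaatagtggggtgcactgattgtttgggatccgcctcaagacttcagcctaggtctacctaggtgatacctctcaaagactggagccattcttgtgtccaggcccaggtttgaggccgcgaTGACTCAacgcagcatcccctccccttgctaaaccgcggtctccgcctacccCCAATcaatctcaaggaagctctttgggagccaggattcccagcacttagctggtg
Of 32851 promoter windows in the same set, 13.6% held the TATA box, 37.4% CCAAT, 35.7% the GC box, 7.15% the E box, 7.81% the AP-1 motif and 3.65% the FOXO motif. Strit1 held 3 CCAAT matches, Gm28979 and 9530026P05Rik 1 each, and 9530026P05Rik also 1 AP-1 and 1 FOXO match. Gm11734 held none of the 6. A match is a run of letters and not a measured site.

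Many members share exonic sequence with a gene on the other strand, and this bears on the other 7 calls. The library kit used does not mark strand, and the strand setting of the counting was not given in the sources used here, so reads of a gene and its antisense partner cannot be told apart. Of 332 members found in GENCODE M21, 208 overlap exons of another gene on the other strand. With either strand counted, 49 overlap another gene over 50% or more of their exonic length. In some pairs the counts were the same or nearly so. Gm26825 had 1861, 1763, 2216 and 2205 counts in the LLC1 mice and 1667, 2058, 1594 and 1657 in the PBS mice, and its partner Gm15459 had 1861, 1760, 2214 and 2204, and 1667, 2056, 1594 and 1656. The largest gap between the pair was 0.170%. Gm26619 and its partner Gm10260 had identical counts in 7 of 8 mice.

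Fold changes of such pairs had the same sign in 38 of 46 members that overlap a tested gene by 50% or more. The member's log2 fold change and that of its partner had Pearson r = 0.821 across these genes, and 0.707 without Gm26735 and Gm26778. Some pairs lay apart, such as Gm26720 at -0.46 with Hdac4 at 0.14, and Gm26565 at -0.31 with Celf2 at 0.04. Over 128 members with less overlap r was 0.460, and over 95 members with no exon overlap r with the nearest coding gene was -0.158. These points share the same 8 libraries, genes are not independent replicates, and the first pairs can share reads.

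**Figure D5:**
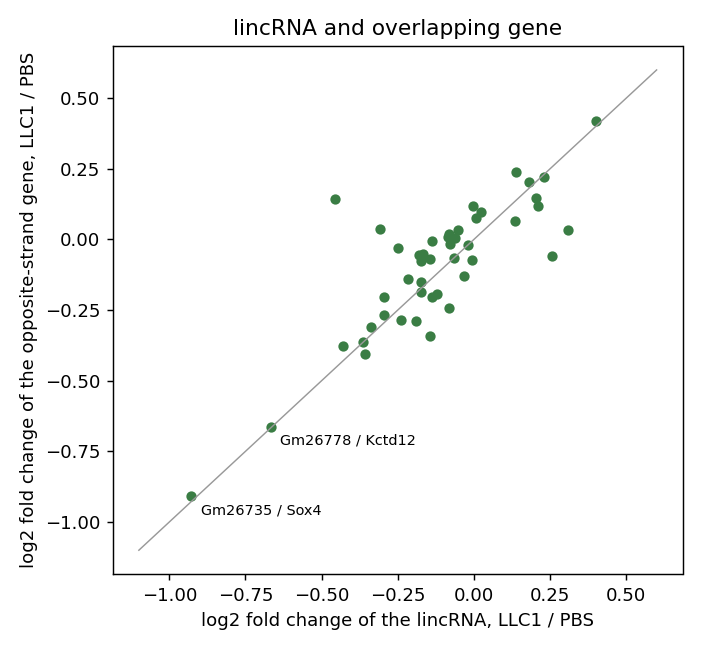
Each point is one of 46 members whose exons overlap a tested opposite-strand gene by 50% or more, placed by the log2 fold change (LLC1 over PBS) of the member (x axis) and of the overlapping gene (y axis); the line marks equal values. Gm26735 with Sox4 and Gm26778 with Kctd12 lie at the lower left, on the line.

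Both other lower calls were of this kind. Gm26778 (ENSMUSG00000097142, chr14:102978220-102982528) lies with all of its exonic length on Kctd12, a gene for an auxiliary subunit of GABA-B receptors. It was at 14.6, 18.3, 15.5 and 20.8 CPM in the LLC1 mice and at 26.1, 27.2, 28.4 and 28.2 CPM in the PBS mice, with all LLC1 mice lower (log2 -0.67 ± 0.11, adjusted p = 0.00439 in edgeR's quasi-likelihood test). Kctd12 was at 24.6 ± 2.83 CPM against 39.0 ± 1.03 CPM (SD, n = 4; log2 -0.66), and the ratio of the member's counts to its counts stayed between 0.648 and 0.754. Gm26735 (ENSMUSG00000097461, chr13:28943048-28951671) overlaps Sox4, a transcription factor gene, over 98.8% of its exonic length. It was at 5.95, 5.26, 5.46 and 6.53 CPM against 10.1, 10.8, 15.6 and 7.66 CPM, again with all LLC1 mice lower (log2 -0.93 ± 0.19, adjusted p = 0.0129 in edgeR's quasi-likelihood test). Sox4 was at log2 -0.91. Whether the lincRNA, the coding gene or both fell cannot be told apart in these counts.

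The other 5 higher calls overlap a coding gene over a smaller part. Gm26762 (ENSMUSG00000097660, chr7:34224755-34230236) overlaps Gpi1, a glycolytic enzyme gene, over 14.0% and was at 163, 160, 166 and 165 CPM in LLC1 mice and at 136, 142, 139 and 146 CPM in PBS mice. B130046B21Rik (ENSMUSG00000097414, chr15:98807032-98816077) overlaps Prkag1, an AMPK subunit gene, over 40.3% and was at 71.7, 69.3, 68.5 and 69.1 CPM against 57.2, 59.2, 59.0 and 59.0 CPM. In both, all LLC1 mice were above all PBS mice, and the changes were small, at log2 0.22 ± 0.05 and 0.25 ± 0.05 (adjusted p = 0.0304 and 0.0178 in edgeR's quasi-likelihood test). Gm16845 with Ecsit (39.6%), Gm26648 with Nub1 (12.1%) and 1700086O06Rik with Dele1 (7.15%) were at log2 0.30, 0.40 and 0.32. With 1 mouse left out, B130046B21Rik was called in 5 of 8 fits, Gm26648 in 3, Gm26762 in 2 and Gm16845 and 1700086O06Rik in 1 each. The partners of the first 4 were at 0.24 for Gpi1, 0.27 for Prkag1, 0.17 for Ecsit and 0.45 for Nub1, the same direction as the member in each case, and Dele1 was at 0.12. Prkag1 and Nub1 were themselves called higher (adjusted p = 0.0118 and 0.012 in edgeR's quasi-likelihood test), while Gpi1, Ecsit and Dele1 were not. The ratio of the counts of B130046B21Rik to those of Prkag1 stayed between 0.646 and 0.666. Where exons overlap, reads of these members and their partners cannot be told apart either. By class, 6 of 118 members without overlap were called (5.08%), 5 of 165 with less than 50% overlap (3.03%), 2 of 49 with more (4.08%) and 0 of 18 that are not in GENCODE M21, beside the 8.73% of all genes tested.

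The snoRNA hosts that were listed by name gave 6 members, and none passed edgeR's quasi-likelihood test in either direction or had an unadjusted p under 0.05. So few genes, beside the 8.73% of all genes called, do not set the hosts apart. Of these, Snhg1, Snhg6, Snhg7 and 2810008D09Rik (Snhg20) were at log2 0.15, 0.13, 0.11 and 0.29, and Snhg12 and Snhg18 were both at -0.06. Gas5, another host, carries a different biotype in the table. The median over the 6 was 0.12. By position in GENCODE M21, 8 members held a snoRNA on their own strand, 2410004N09Rik, 2900076A07Rik and 9430037G07Rik among them, and these 8 lay between -0.19 and 0.29 on the log2 scale with no adjusted p under 0.356 in edgeR's quasi-likelihood test. Snhg6 was at 6.21, 5.46, 5.24 and 6.28 CPM in LLC1 mice and at 7.45, 4.55, 4.58 and 4.83 CPM in PBS mice, so that PBS 1-1 was the highest of all 8 and the other PBS mice the lowest.

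Among the microRNA hosts, A330023F24Rik, the gene that carries miR-29b and miR-29c (ENSMUSG00000096929, chr1:194976375-195037904), was called only when PBS 1-1 was left out. It was at 24.04, 30.6, 28.9 and 33.5 CPM in LLC1 mice and at 38.4, 20.02, 16.3 and 19.04 CPM in PBS mice. All 4 LLC1 mice were above 3 of the PBS mice and below PBS 1-1. With all mice it was at log2 0.34 ± 0.22 (SE, adjusted p = 0.356 in edgeR's quasi-likelihood test), and without PBS 1-1 at 0.67 ± 0.11. PBS 1-1 was known for its high lincRNA share when the members were chosen. The value and call without it are thus a description and no support for a rise. Mir17hg was at log2 -0.14, 6720427I07Rik, the host of let-7d, at -0.32, Gm27028, the host of miR-30c-2, at -0.14 and E130102H24Rik, the host of miR-101a, at 0.41, with adjusted p-values of 0.645, 0.274, 0.813 and 0.148 in the same test. Mir143hg, known as Carmn, was highest in PBS 1-1 at 6.51 CPM and between 2.11 and 3.33 CPM in the other 7 mice.

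The X inactivation genes and the lincRNAs known from growth and muscle were low and did not pass the test. Xist ran from 0.793 to 2.36 CPM in these male hearts, Jpx from 1.29 to 2.95 CPM and Ftx from 1.64 to 3.94 CPM, with log2 fold changes of 0.11, 0.04 and 0.20. Pvt1, which lies beside Myc, was lower in all 4 LLC1 mice at 0.855 to 1.105 CPM against 1.23 to 1.37 CPM, but its adjusted p was 0.352 in edgeR's quasi-likelihood test. Crnde was at log2 0.17, 2410004N09Rik (Epb41l4aos) at 0.23 and Gm20748 (Bvht, named for its role in heart cell commitment) at -0.14.

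Repeating the fit without PBS 1-1 gave 19 called members of 350 (5.43%), 15 higher and 4 lower, while 11.9% of all genes tested were called in that fit. That mouse was left out because its lincRNA share was known to be high. Its removal lowers the PBS level of members that are high in it, so the calls gained are a description and no separate support. Of the 13 calls with all mice, 11 were also called without it. The 8 that were gained were 4930562F07Rik, lower, and Gm5532, 2310015A10Rik, Gm16984, 1010001N08Rik, 1810012K08Rik, Gm26881 and A330023F24Rik, higher. Gm16845 and Gm11734 were lost, with adjusted p-values of 0.0657 and 0.0647 in edgeR's quasi-likelihood test. PBS 1-1 was the highest of the 8 mice in 27.4% of members and in 22.01% of all genes tested, and lay more than 2-fold above the mean of the other PBS mice in 16 members (4.57%, beside 1.87% of all genes tested). The part of this library in each result was not tested beyond leaving it out.

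The share of counts on lincRNA genes was 1.89% ± 0.367 (SD, n = 4) in LLC1 and 3.02% ± 2.24 in PBS hearts, a difference of -1.13 percentage points. PBS 1-1 was known for this share when the members were chosen, so the shares are a description with no test. Without PBS 1-1 the difference was -0.0146 points. Without Yam1, Malat1 and Neat1 the share was 0.416% ± 0.00436 in LLC1 and 0.431% ± 0.00857 in PBS hearts, lower in all 4 LLC1 mice. That order was seen on raw totals only: with shares divided by the TMM factors, an alternative chosen after seeing the data, both groups had a mean of 0.423% and overlapped. Members without Malat1 and Neat1 had a raw share of 0.396% ± 0.00430 against 0.408% ± 0.00947, and divided by the TMM factors 0.403% against 0.401%, so the direction turned, and the groups overlapped on both scales. Among members without Malat1, with Neat1 in the sum, the share was 0.598% ± 0.0186 against 0.558% ± 0.0154, higher in all 4 LLC1 mice on both scales.

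Marker lists of other cell types had these counts, beside the 8.73% called among all genes tested. Of 8 fibroblast markers 5 were called lower, of 8 endothelial markers 3 lower and of 8 macrophage markers 3 lower, while 3 of 4 neutrophil markers and 2 of 10 cardiomyocyte markers were called higher. Called higher were also 1 of 4 atrial, 1 of 2 skeletal muscle and 1 of 3 nerve and Schwann cell markers, and none of 8 smooth muscle and pericyte, 6 erythroid and 1 lymphoid markers was called. No adipocyte marker passed the filter on low counts. Summed fibroblast markers were 987 to 1097 CPM in LLC1 and 1112 to 1611 CPM in PBS mice, with PBS 1-1 at the lowest PBS value of 1112 CPM. Summed cardiomyocyte markers were 112859 to 120267 CPM in LLC1 and 102221 to 115390 CPM in PBS mice, with PBS 1-1 the highest of the PBS mice. Ttn, which encodes the sarcomere protein titin, was at 18456 CPM in PBS 1-1 and at 8249 to 8434 CPM in the other PBS mice. Summed neutrophil markers were low, at 7.49 to 11.6 CPM and 4.41 to 5.04 CPM, and Mmp8 and Ly6g never had more than 3 counts. The part of these cells in the changes of the members was not tested.

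The limit of 10 counts cut through a continuous range. Of the members, 14 had a lowest count of exactly 10, and 12 lincRNAs just outside had a lowest count of 9. Those inside ran from log2 -0.61 (Gm26892) to 0.53 (Gm28151) with a median of 0.04, and those outside from -0.86 (5830432E09Rik) to 0.73 (Gm13881) with a median of -0.04. In all, 96 lincRNAs were tested but did not meet the limit, these 12 among them. Of the 96, 1 was called lower and 0 higher (1.04%, beside 8.73% of all genes tested). It was Gm21807, with 6, 6, 11 and 10 counts in the LLC1 mice and 14, 12, 18 and 17 counts in the PBS mice (log2 -1.08), and it is named here after its values were seen.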

How the data were processed

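RNA from ventricular tissue was prepared with the TruSeq RNA Library Prep Kit v2, which selects polyadenylated RNA and does not mark strand, and sequenced on an Illumina HiSeq. The deposited counts are whole reads per gene, not normalized. The submitters' processing notes name CASAVA, STAR, featureCounts and mm10, with versions, annotation release and strand setting not given in the sources used here. Malat1 and the long Neat1 isoform lack a normal poly(A) tail, so their capture depends on the selection.

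The deposited counts were normalized with TMM factors, filtered with filterByExpr and fitted with edgeR 4.0.16 (quasi-likelihood test, 4 LLC1 against 4 PBS mice, no covariate) over 16111 genes, with Benjamini-Hochberg adjustment. Standard errors were taken from the log2 fold change and its F value. DESeq2 1.42.0 and limma 3.58.1 were alternatives. CPM are TMM-scaled, and TPM were computed from the deposited lengths. Nothing in the labels states whether litters or cages were shared, and p-values measure the spread between these mice. Library totals were 12480706 to 19747596 counts. Exon overlap was read from GENCODE M21, in which 332 of 350 members were found, 252 with the same bounds. Of the members, 132 symbols had a RefSeq promoter. Named genes were the called members, the 10 with the highest TPM, members on role lists, those at the limit and the coding neighbours. The members, gene lists and tests were chosen with earlier results of these data known. A permutation test planned for the lincRNA share is not reported, since that share was known when the members were chosen. Tests were tried on simulated counts.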

Additional observations from a re-analysis of the deposited data

Results flagged for a closer look

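The 82 groups of 4 mice behind the named members and lincRNA shares were checked for a mouse far from the other 3 (Dixon's test), which chance gives in about 1 of 20 groups. It was met in 9 groups, and in 8 of them the mouse was PBS 1-1. This mouse had been singled out for its high lincRNA share when the members were chosen, so its values for the shares and for Malat1 are a description and not a separate finding. Malat1 was highest there at 11776 CPM, A330023F24Rik at 38.4 CPM, Snhg6 at 7.45 CPM, Mir143hg at 6.51 CPM and 9530026P05Rik at 4.46 CPM. B130046B21Rik was lowest there at 57.2 CPM. The share of counts was highest there for all lincRNA genes (6.35%) and for members (1.64%). The remaining one was D830032E09Rik, highest in LLC1 1-5 at 13.7 CPM.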

How the results depend on the processing

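Against 10 higher and 3 lower calls, library totals alone gave 3 higher and 7 lower, DESeq2 14 and 7, no filter 9 and 5, robust empirical Bayes 11 and 5 and the first label number as covariate 14 and 10. Leaving out 1 mouse gave 1 to 15 higher and 3 to 8 lower. Higher calls were 2 without LLC1 1-2, 1 without LLC1 1-3, 5 without LLC1 1-5, 3 without LLC1 2-2, 2 without PBS 1-3 and 4 without PBS 2-1, and lower calls 7 without PBS 2-1 and 8 without PBS 2-5. Calls over all genes moved too, from 1406 to 751, 634, 712, 832, 542, 955 and 1636 in the 4 LLC1 and the PBS 1-3, 2-1 and 2-5 fits. They were 1016 with library totals, 1757 with DESeq2, 1515 with no filter, 1491 with robust empirical Bayes and 1681 with the covariate. Neat1, Gm26735, Gm26778 and Gm28979 were called in all 16 alternatives, RP24-79E2.2 in all but the one without LLC1 1-3 (adjusted p = 0.0528, edgeR's quasi-likelihood test), and each of the other 8 calls was lost in several. Malat1 (log2) went from -1.26 without PBS 2-1 to 0.0189 without PBS 1-1. The share difference on lincRNA genes was -1.13 points. It was -1.62 to -0.0146 with 1 mouse left out, -0.0149 without the 3 genes with the most counts, and 7.32e-05 without them and with shares divided by TMM factors, which was chosen after seeing the data. No paired analysis was possible because the groups share only the code 1-3, which different animals carry. Of the 350, 274 lay under 10 CPM, and the median standard error was 0.18 (log2). The part of depth in the calls was not tested.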

Other observations

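Among members that did not pass the test, the largest difference upward was in 1810044D09Rik, at 2.84, 2.70, 1.86 and 2.26 CPM in LLC1 mice and 1.63, 0.770, 1.65 and 1.53 CPM in PBS mice (log2 0.78, adjusted p = 0.0705 in edgeR's quasi-likelihood test). All 4 LLC1 mice were above all 4 PBS mice. F730311O21Rik was at 2.97, 2.56, 3.28 and 2.66 CPM against 5.23, 6.30, 3.41 and 3.89 CPM, all 4 LLC1 mice lower (log2 -0.70, adjusted p = 0.0516 in the same test). 4933417D19Rik was lower in all 4 as well (log2 -0.72, adjusted p = 0.0796 in edgeR's quasi-likelihood test).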
